A study of Mus musculus with 35 samples.

Results

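The mRNAs of the enzymes that carry farnesyl diphosphate through squalene and lanosterol to cholesterol were followed in 35 RNA-seq libraries from immortalized mouse embryonic fibroblasts (iMEFs) in which NELF-B, a subunit of the negative elongation factor NELF, was removed or replaced. The genes were chosen by name as members of this pathway: Fdft1, Sqle, Lss, Cyp51, Msmo1, Nsdhl, Hsd17b7, Sc5d and Dhcr7, which are 9 of the 24421 genes listed. All 9 passed the filter on low counts, among 13805 genes tested in populations and 13223 tested in clones.

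Every library came from cells with a Nelfb flox/- genotype, meaning that a null allele stands beside a floxed allele that Cre can delete, so the control cells also carried the null allele. The 20 population libraries came from cells given a pLenti empty vector (EV), wild-type NELF-B (WT), or the mutants MT194, MT486 or the double mutant DMT, which carries both changes, followed by adenovirus with Cre and GFP (Cre) or with GFP alone (GFP), and were taken 7 days after virus in 2 replicates per group. The 15 clone libraries came from single-cell-derived lines grown after Ad-Cre, 3 lines per group, with WT, MT194 or MT486 in pLenti, or with WT(N48) or a C-terminal truncation (Δ-C60) in pBabe, so that each clone library describes the progeny of a single cell. Reads on genes numbered 17969149 to 29080007 per population library (median 21617290.5) and 18413284 to 27816723 per clone library (median 20933014). The cells grew in medium with fetal bovine serum. The labels call the replicates biological, and by the study's own account the population libraries came from 2 independent experiments.

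Nelfb itself was read first, as a check of the labels. In EV cells it stood at 46.1 and 39.5 CPM (counts scaled to a common library size) in the 2 GFP libraries and at 7.97 and 5.46 CPM in the 2 Cre libraries, a log2 fold change of -2.67 ± 0.22 (SE) with an adjusted p of 2.5e-05 (edgeR quasi-likelihood test, Benjamini-Hochberg adjustment). Among Cre libraries with a construct, Nelfb was at 75.9 and 60.5 CPM in WT, 104 and 119 CPM in MT194, 116 and 128 CPM in MT486, and 169 and 208 CPM in DMT. Reads from the construct and from the floxed allele cannot be told apart. The clones labelled WT did not match each other: Nelfb was at 10.3 CPM in clone 1, 109 CPM in clone 2 and 15.5 CPM in clone 3, while the 12 other clones ranged from 56.3 to 247 CPM. These 3 are called the libraries labelled WT below, and comparisons with them are also given without clones 1 and 3. MT486 clones 1 and 2 were more alike than any other pair of replicates, with a chi-square per gene of 5.059 where the other 24 pairs had 32.37 to 348.5. That is above counting noise, which 2 preparations of a single line could exceed as well. The check therefore cannot show that they are separate lines, and they were kept as separate clones by their labels. Of 9 fibroblast markers, 8 averaged over 1 CPM in both sets, led by Fn1 at a mean of 14007 CPM in populations and 6384 CPM in clones.

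Cholesterol is made from acetyl-CoA through mevalonate to farnesyl diphosphate, and squalene synthesis is the first step that commits this carbon to sterols. Squalene is then epoxidized, closed into lanosterol, and trimmed by demethylation, double bond movement and reduction. Transcription of the pathway is driven by SREBP2, encoded by Srebf2, which SCAP escorts out of the endoplasmic reticulum when membrane sterol is low, while INSIG proteins hold it back when sterol is plentiful. Fibroblasts cover their sterol needs both by this synthesis and by uptake from serum.

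In the GFP libraries of EV cells, levels per length set the enzymes in an order that ran from Msmo1 down to Hsd17b7. On the scale of CPM per kilobase of protein-coding transcript exons, Msmo1 was at 278 ± 86.5 (SD, n = 2), Sqle at 228 ± 66.6 and Cyp51 at 105 ± 35.8. Nsdhl was at 61.7 ± 9.86, Sc5d at 52.0 ± 15.9, Lss at 43.6 ± 1.76, Fdft1 at 38.1 ± 1.32 and Dhcr7 at 35.1 ± 11.4, and Hsd17b7 was lowest at 22.5 ± 2.24. Between neighbours in this order, the libraries did not overlap for Sqle and Cyp51, Cyp51 and Nsdhl, Lss and Fdft1, or Dhcr7 and Hsd17b7, and they overlapped for the other pairs. The genes lie on 9 different chromosomes (GRCm38, which is mm10). On the minus strand are Fdft1 (chr14:63145150-63179578), Cyp51 (chr5:4081145-4104746), Msmo1 (chr8:64718139-64733792), Hsd17b7 (chr1:169949535-169969241) and Sc5d (chr9:42251595-42264256), and on the plus strand Sqle (chr15:59315077-59331192), Lss (chr10:76531588-76557138), Nsdhl (chrX:72918557-72958514) and Dhcr7 (chr7:143823145-143848410). Fdft1 overlaps Ctsb, Lss overlaps 4930483K19Rik and Cyp51 overlaps Akap9 on the opposite strand, and since the strand setting of the counting was not stated, reads in those overlaps cannot be assigned with certainty.

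Because the 9 mRNAs moved together in what follows, the bases before their annotated starts were read. RefSeq promoter windows of 300 bases, from 250 before to 50 after a start (GRCm38.p6), were at hand for 7 of the 9 genes, with 3 windows for Dhcr7 and 1 for each of Lss, Cyp51, Msmo1, Nsdhl, Hsd17b7 and Sc5d, and not for Fdft1 and Sqle. In each of the 4 sequences below, printed 5′ to 3′ on the strand of the gene and cut where an annotated exon begins, capitals mark CCAAT, the core letters bound by NF-Y, and GGGCGG, the core letters bound by Sp1, or their reverse complements ATTGG and CCGCCC. They are shown because SREBP2 acts on sterol gene promoters together with factors that bind such letters.
Lss (chr10:76531355-76531587, plus strand, 233 bases): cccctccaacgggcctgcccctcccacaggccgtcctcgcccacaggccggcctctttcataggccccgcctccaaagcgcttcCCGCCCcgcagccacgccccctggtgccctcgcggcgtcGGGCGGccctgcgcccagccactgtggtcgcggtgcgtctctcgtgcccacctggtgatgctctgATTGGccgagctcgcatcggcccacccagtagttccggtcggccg
Cyp51 (chr5:4104747-4104947, minus strand, 201 bases): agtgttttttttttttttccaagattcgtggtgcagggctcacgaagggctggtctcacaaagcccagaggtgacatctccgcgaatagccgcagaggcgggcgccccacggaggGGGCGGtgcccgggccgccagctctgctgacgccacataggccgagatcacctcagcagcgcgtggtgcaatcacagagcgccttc
Hsd17b7 (chr1:169969242-169969408, minus strand, 167 bases): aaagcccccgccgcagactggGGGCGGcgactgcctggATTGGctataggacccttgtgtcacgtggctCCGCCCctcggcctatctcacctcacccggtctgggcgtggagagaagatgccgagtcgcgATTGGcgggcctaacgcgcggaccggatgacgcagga
Sc5d (chr9:42264301-42264550, minus strand, 250 bases): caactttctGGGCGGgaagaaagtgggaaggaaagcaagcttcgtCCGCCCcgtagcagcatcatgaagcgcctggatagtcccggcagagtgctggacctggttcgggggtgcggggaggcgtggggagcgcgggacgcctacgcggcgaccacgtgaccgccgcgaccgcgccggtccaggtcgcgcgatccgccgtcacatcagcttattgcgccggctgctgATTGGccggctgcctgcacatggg
Counted from the start, with -1 for the base before it, an ATTGG begins at -62 in Lss and at -24 in Sc5d. Hsd17b7 shows a pair of ATTGG matches, beginning at -165 and -73. A further ATTGG of Hsd17b7, beginning at -12, and the CCAAT of Cyp51, beginning at -29, lie past the printed stretches. Read on both strands, CCAAT occurred in 7 of the 9 windows and in 37.4% of all 32851 windows, and GGGCGG in 8 of 9 and in 35.7% of all windows. The windows without a match were among the 3 of Dhcr7, a pair of which overlap each other. TCACNCCAC, a spelling of the sterol regulatory element, occurred in 0 of 9 windows and in 1.24% of all windows. No motif contains another, and a match is a description of the letters, not of binding.

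Removal of NELF-B from EV cells was followed by lower mRNA of the whole set. All 9 enzymes were called lower in Cre than in GFP, where a call needs an adjusted p under 0.05 together with a log2 fold change whose size is over 1, against 3.24% of all genes tested. Their log2 fold changes had a median of -2.77, beside 0.0004 for all genes tested. For 9 of 9 both Cre libraries lay below both GFP libraries, against 23.9% of all genes tested, and the count was 8 or 9 whichever EV library was left out. Less mRNA per cell and fewer cells of a kind that makes it cannot be told apart in these bulk samples.

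Fdft1 encodes squalene synthase, which joins farnesyl diphosphate molecules to squalene. It was at 144 and 137 CPM in the 2 EV-GFP libraries and at 22.7 and 17.7 CPM in the 2 EV-Cre libraries, 6.98-fold lower (log2 fold change -2.80 ± 0.34, SE, adjusted p = 0.000252, edgeR). Sqle, the squalene epoxidase that controls flux through the lower pathway, was at 499.8 and 759 CPM in EV-GFP and at 83.8 and 111 CPM in EV-Cre, 6.46-fold lower (-2.69 ± 0.28, adjusted p = 7.83e-05, edgeR). Lss, the synthase that folds the epoxide into lanosterol, was at 209 and 198 CPM in EV-GFP and at 30.9 and 28.8 CPM in EV-Cre, 6.81-fold lower (-2.77 ± 0.25, adjusted p = 3.53e-05, edgeR). For each of these 3 genes the higher EV-Cre library lay far below the lower EV-GFP library.

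The largest falls were among the demethylation enzymes. Cyp51, the cytochrome P450 that starts the trimming of lanosterol, was at 314 and 513 CPM in EV-GFP and at 31.1 and 42.0 CPM in EV-Cre, 11.3-fold lower (-3.50 ± 0.32, adjusted p = 4.18e-05, edgeR). Msmo1, the oxidase of the next demethylation, was at 443 and 693 CPM in EV-GFP and at 49.9 and 55.2 CPM in EV-Cre, 10.8-fold lower (-3.43 ± 0.29, adjusted p = 2.91e-05, edgeR). Nsdhl, the dehydrogenase that follows it, was at 119 and 149 CPM in EV-GFP and at 11.8 and 11.6 CPM in EV-Cre, 11.4-fold lower (-3.51 ± 0.19, adjusted p = 1.52e-06, edgeR). Nsdhl thus had nearly equal EV-Cre libraries and the lowest adjusted p of the 9. Hsd17b7, the ketone reductase of the same demethylation cycle, was at 105 and 121 CPM in EV-GFP and at 19.5 and 22.6 CPM in EV-Cre, 5.40-fold lower (-2.43 ± 0.16, adjusted p = 3.64e-06, edgeR). Its fall was smaller than that of the other 3 demethylation enzymes, and the difference between genes was not tested.

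Late steps fell as well, Sc5d least of all 9 enzymes. Sc5d, the desaturase that makes 7-dehydrocholesterol from lathosterol, was at 198 and 308 CPM in EV-GFP and at 64.2 and 103 CPM in EV-Cre, 3.03-fold lower (-1.60 ± 0.32, adjusted p = 0.00541, edgeR). Dhcr7, which reduces 7-dehydrocholesterol to cholesterol, was at 89.5 and 143 CPM in EV-GFP and at 17.1 and 25.3 CPM in EV-Cre, 5.49-fold lower (-2.46 ± 0.33, adjusted p = 0.000464, edgeR). In both genes replicate 2 was higher than replicate 1 under either virus, and the gap between viruses exceeded that between replicates. As a share of the GFP level, the mean EV-Cre level ran from 8.87% for Nsdhl to 32.9% for Sc5d.

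Markers of other cell types were read in the same libraries, and the summed levels of these lists lay apart between EV-GFP and EV-Cre, most of them at a few CPM. The summed level of 3 adipocyte markers, nearly all of it Fabp4, went from 105 and 83.5 CPM in EV-GFP to 69.0 and 44.6 CPM in EV-Cre. Adipoq was at 0.0492 and 0.0488 CPM in EV-GFP and Plin1 at 0 CPM in both, so the defining markers of adipocytes were at or near 0. The summed level of 4 steroidogenic markers, nearly all of it Star, went from 3.54 and 3.22 CPM in EV-GFP to 5.90 and 7.25 CPM in EV-Cre, and from 3.62 and 3.81 CPM in WT-GFP to 2.69 and 3.43 CPM in WT-Cre. It was thus higher with Cre in EV and not in WT, a difference that was not tested, while Hsd3b1 was at 0 CPM in these EV libraries and Cyp11a1 at 0.135 CPM or lower. The summed level of 5 epithelial markers, mostly Krt19, went from 1.92 and 2.00 CPM to 4.78 and 2.87 CPM in EV and from 2.12 and 1.79 CPM to 4.01 and 3.24 CPM in WT. Krt8 was at 0 CPM and Epcam at 0.0471 CPM or lower in EV. The summed level of 4 leukocyte markers, nearly all of it Cd68, went from 2.21 and 3.998 CPM in EV-GFP to 4.05 and 5.37 CPM in EV-Cre, and that of 3 hepatocyte markers, nearly all of it Alb, from 3.49 and 5.66 CPM to 6.67 and 6.69 CPM. Ptprc, which defines leukocytes, was at 0.0492 CPM or lower and the hepatocyte gene Ttr at 0 CPM in these EV libraries. The sum of 4 endothelial markers, led by Kdr over all populations, went from 0.295 and 1.02 CPM to 1.08 and 1.18 CPM, and that of 3 pluripotency markers, led by Nanog, from 0.393 and 0.585 CPM to 0.315 and 0.330 CPM, with Pou5f1 at 0 CPM. In the mutants such sums moved too. The adipocyte sum went from 118 and 81.6 CPM in MT194-GFP to 74.0 and 67.1 CPM in MT194-Cre, and the epithelial sum from 2.67 and 1.99 CPM to 5.69 and 4.17 CPM in MT486 and from 2.495 and 1.76 CPM to 5.81 and 4.90 CPM in DMT, each without overlap. The steroidogenic sum went from 3.06 and 3.23 CPM to 3.78 and 5.20 CPM in MT194 and from 2.44 and 3.74 CPM to 4.74 and 6.74 CPM in DMT. Replicate 2 of MT194-Cre had the highest fibroblast sum of the 20 libraries, 44114 CPM, and the highest hepatocyte sum, 16.8 CPM. Where leaving it out changed how many enzymes edgeR called, that is also given. Fits with the replicate number as a block, medians and correlations are given only with it. The part of these lists in the enzyme values was not tested.

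**Figure D1:**
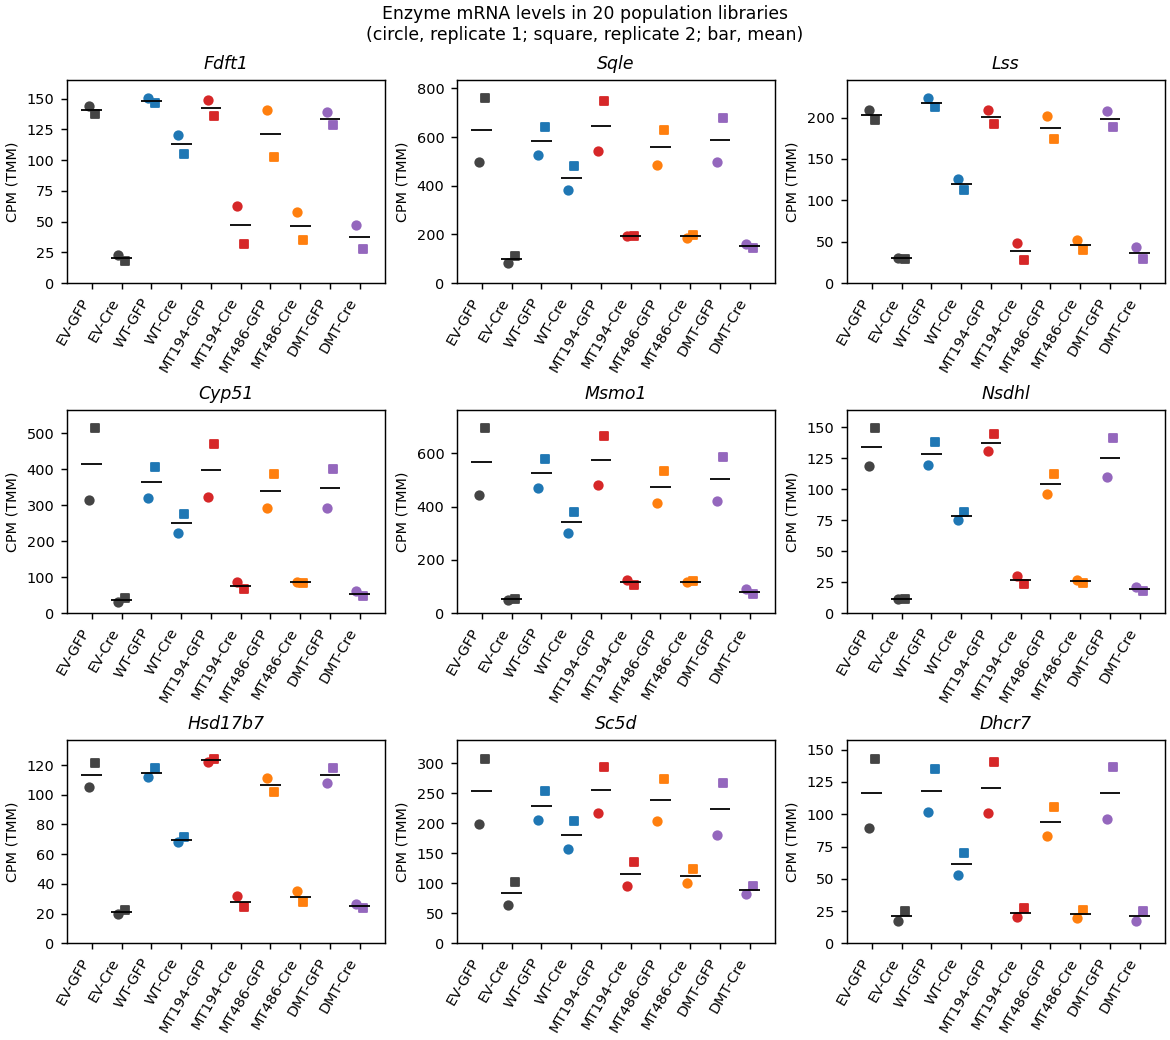
Levels of the 9 enzyme mRNAs in the 20 population libraries, in CPM after TMM normalization on axes that start at 0, with a circle for replicate 1, a square for replicate 2, a bar for the mean and a colour for each construct. In every panel both EV-Cre points lie below all GFP points, and the WT-Cre bar lies below every GFP bar and above every mutant Cre bar.

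With WT NELF-B present, the same virus moved the enzymes far less. Of the 9 enzymes, 0 were called lower in WT, against 0% of all genes tested in that direction. By edgeR 5 of them, Lss, Msmo1, Nsdhl, Hsd17b7 and Dhcr7, had an unadjusted p under 0.05 (lower in 3.19% of all genes tested), and DESeq2 called 0, beside 0.203% of all genes in either direction. The changes ran from -0.35 (Sc5d) to -0.94 (Dhcr7) on the log2 scale, with a median of -0.62, so every enzyme was measured lower in Cre. Cyp51 was at 320 and 406 CPM in WT-GFP and at 222 and 276 CPM in WT-Cre, so its Cre libraries lay below both GFP libraries. Dhcr7 was at 102 and 135 CPM in WT-GFP and at 53.1 and 70.0 CPM in WT-Cre, with no overlap either. The 95% interval of the Dhcr7 change ran from -1.62 to -0.27 and that of Fdft1 from -1.08 to 0.30. With the replicate number as a block, 0 enzymes passed the fold change threshold, beside 0.485% of all genes, while the adjusted p reached 0.00264 for Lss, 0.00908 for Nsdhl, 0.00381 for Hsd17b7 and 1.49e-05 for Dhcr7 (edgeR).

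In the mutants the changes were larger than in WT for every enzyme and, but for Dhcr7 in DMT, smaller than in EV. In MT194 8 enzymes were called lower in Cre, against 1.29% of all genes tested, in MT486 8 were called, against 0.724%, and in DMT 9 were called, against 2.69%. The median log2 fold changes over the 9 enzymes were -2.31 in MT194, -1.98 in MT486 and -2.45 in DMT. Sc5d was the enzyme not called in the single mutants. It stood at 217 and 294 CPM in MT194-GFP and at 95.0 and 135 CPM in MT194-Cre, a log2 fold change of -1.15 with an adjusted p of 0.057 (edgeR), and its change in MT486 was -1.09 with an adjusted p of 0.0918. With the replicate number as a block Sc5d was called in both, beside 2.51% and 2.12% of all genes, with adjusted p of 5.46e-07 in MT194 and 1.88e-06 in MT486. Nsdhl was at 130 and 144 CPM in MT194-GFP and at 29.7 and 23.6 CPM in MT194-Cre, and at 95.9 and 112 CPM in MT486-GFP and 27.0 and 24.6 CPM in MT486-Cre. In DMT it was at 109 and 141 CPM with GFP and at 21.1 and 17.5 CPM with Cre, so that after Cre the DMT libraries were the lowest of the 3 mutants. The weakest call was Fdft1 in MT486, at -1.39 with an adjusted p of 0.0429. Fitted on the compared groups alone, the MT194 and MT486 counts went from 8 to 0, in fits that called 0% and 0.0381% of all genes in either direction, against 2.48% and 1.46% before. The enzymes' log2 fold changes in those fits ran from -2.38 to -1.15 in MT194 and from -2.07 to -1.09 in MT486. Without MT194-Cre replicate 2 the MT194 count was 7, and without MT486-Cre replicate 1 or replicate 2 the MT486 count was 4 or 5.

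**Figure D2:**
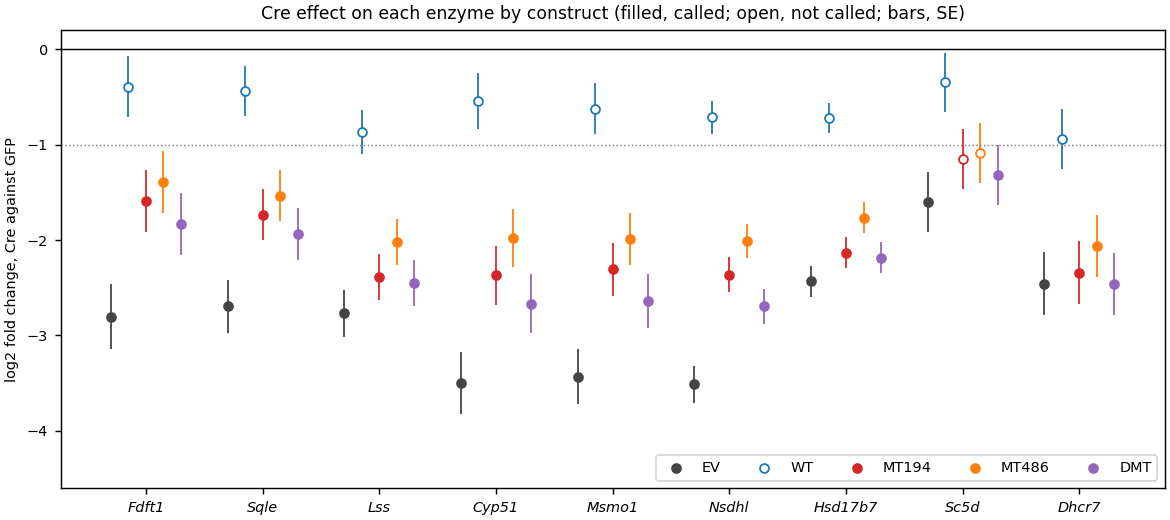
Log2 fold change of each enzyme, Cre against GFP within a construct, with bars of 1 SE, filled points for called changes, open points for others and a dotted line at the threshold of -1. The WT points lie between -0.94 and -0.35, and for 8 of the 9 genes the EV point is lowest, with Dhcr7 the exception, where EV and DMT are alike at -2.46.

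Taken within a replicate number, Cre against GFP was negative for all 9 enzymes in both replicates of every construct, 18 of 18 log2 ratios each. These ratios ran from -3.68 to -1.58 in EV, from -0.95 to -0.31 in WT, from -2.81 to -1.12 in MT194, from -2.19 to -1.02 in MT486 and from -3.11 to -1.12 in DMT. The WT range therefore did not reach any other construct's range. The summed CPM of the 9 enzymes after Cre was 15.6% and 13.8% of the GFP sum in EV, and 67.5% and 67.8% in WT. It was 30.5% and 21.9% in MT194, 33.8% and 28.1% in MT486, and 26.9% and 18.2% in DMT. Both replicates thus gave the same order of EV, DMT, MT194, MT486 and WT.

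Set against EV-Cre directly, which shares its 2 libraries among these comparisons, WT-Cre had all 9 enzymes higher. A call here needs the same adjusted p with a log2 fold change whose size is over 0.5, and 3.89% of all genes tested were called higher. The changes ran from 1.11 for Sc5d (adjusted p = 0.0464, edgeR) to 2.77 for Cyp51 (adjusted p = 0.00043, edgeR), 2.16-fold and 6.81-fold. In MT194-Cre 1 enzyme, Nsdhl, was called higher, against 0.0797% of all genes tested, with a change of 1.19 and an adjusted p of 0.0274 (edgeR). In MT486-Cre it was again Nsdhl alone, against 0.181%, with a change of 1.14 and an adjusted p of 0.0214 (edgeR). In DMT-Cre 0 were called, against 0.00724%, where 4 enzymes were higher at an unadjusted p under 0.05 by edgeR (1.9% of all genes tested) and DESeq2 called 0, beside 0.0507% of all genes in either direction. The levels of Nsdhl given above show both single-mutant Cre groups above both EV-Cre libraries. With the replicate number as a block, 5 enzymes were called in MT194-Cre (Fdft1, Sqle, Cyp51, Msmo1 and Nsdhl) beside 3.12% of all genes, 7 in MT486-Cre (all but Sc5d and Dhcr7) beside 4.8%, and 0 in DMT-Cre beside 0.225%. Leaving out any 1 of the 4 compared libraries left 1 library in a group. The MT194 and MT486 calls made without the block were then lost, as were most calls over all genes. Dhcr7 stayed near its EV-Cre level in each mutant. Without the block its changes were 0.17 in MT194, 0.09 in MT486 and -0.0045 in DMT. Their 95% intervals, which include the shift between replicates, ran from -0.52 to 0.85, from -0.60 to 0.78 and from -0.69 to 0.68. With the block the changes were 0.175 ± 0.0881 (SE) in MT194, 0.099 ± 0.0887 in MT486 and -0.0021 ± 0.0883 in DMT, and none was called.

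Whether a construct changed the response to Cre was tested as the difference between its Cre effect and that of EV, called at an adjusted p under 0.05 with no threshold on size. In WT the difference was called for 7 enzymes, against 0.398% of all genes tested. It was 2.41 ± 0.46 (SE, log2) for Fdft1 with an adjusted p of 0.0359, 2.25 ± 0.37 for Sqle with 0.0194 and 1.90 ± 0.33 for Lss with 0.0252 (edgeR). Among the demethylation enzymes it was 2.96 ± 0.42 for Cyp51 with an adjusted p of 0.00907, 2.81 ± 0.38 for Msmo1 with 0.0069, 2.80 ± 0.25 for Nsdhl with 0.000631 and 1.71 ± 0.22 for Hsd17b7 with 0.00574 (edgeR). The late enzymes missed the threshold, at 1.25 for Sc5d (adjusted p = 0.256) and 1.51 for Dhcr7 (adjusted p = 0.163). With the replicate number as a block all 9 were called in WT, beside 9.37% of all genes. In each of MT194, MT486 and DMT the difference was called for 0 enzymes, against 0.00724% of all genes tested in each. By edgeR 5, 7 and 1 of the 9 were higher at an unadjusted p under 0.05 there, beside 1.27%, 2.69% and 0.478% of all genes tested, and DESeq2 called 1, 2 and 0, beside 0.152%, 0.34% and 0.00724% of all genes in either direction. The block gave 2 in MT194 (Sqle and Nsdhl, beside 0.464% of all genes), 5 in MT486 (Fdft1, Sqle, Cyp51, Msmo1 and Nsdhl, beside 1.62%) and 0 in DMT (beside 0.00724%). The WT count was 3 on the compared groups alone, where 0.0742% of all genes were called in either direction against 0.681% before. Leaving out 1 library gave 1 (without WT-Cre replicate 2 or WT-GFP replicate 1), 3 (without EV-Cre replicate 1), 4 (without EV-Cre replicate 2, EV-GFP replicate 2, WT-Cre replicate 1 or WT-GFP replicate 2) or 5 (without EV-GFP replicate 1).

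Against WT-Cre, 5 enzymes were called lower in MT194-Cre, against 0.826% of all genes tested. They were Lss (-1.64), Cyp51 (-1.70), Msmo1 (-1.56), Nsdhl (-1.56) and Hsd17b7 (-1.31), all on the log2 scale. In MT486-Cre 2 were called, against 0.0942%, namely Nsdhl (-1.61, adjusted p = 0.00765, edgeR) and Hsd17b7 (-1.15, adjusted p = 0.0189, edgeR). In DMT-Cre 8 were called, against 1.42%, with Cyp51 lowest at -2.19, or 4.56-fold, and Sc5d uncalled at -1.01 (adjusted p = 0.109). With the replicate number as a block all 9 were called in each mutant, beside 4.9%, 2.51% and 6.66% of all genes. Hsd17b7, to name a gene called in each mutant, was at 68.0 and 71.3 CPM in WT-Cre, 31.9 and 24.3 CPM in MT194-Cre, 35.1 and 27.7 CPM in MT486-Cre and 26.3 and 23.5 CPM in DMT-Cre. All 6 mutant libraries lay below both WT libraries. For MT194 the count was 2 without replicate 2 of MT194-Cre or WT-Cre replicate 1 and 3 without WT-Cre replicate 2, the MT486 count was 0 without any of its 4 libraries, and the DMT count was 4 without DMT-Cre replicate 2 and 5 without WT-Cre replicate 2.

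Ordered by mean level, the population groups fell into the same 3 tiers for every enzyme. All 5 GFP groups came first, WT-Cre next, and the 4 groups of EV-Cre and mutant Cre last, and both gaps between tiers were free of overlap for 7 of the 9 genes, against 0.985% of all genes tested. The tiers were taken from the order of these same enzymes, so this share describes the pattern and does not test it. The exceptions were Fdft1 and Sc5d. For Fdft1 both WT-Cre libraries, at 121 and 105 CPM, lay above the lowest GFP library, at 102 CPM. For Sc5d the higher WT-Cre library, at 204 CPM, lay above the lowest GFP library, at 180 CPM, and the other, at 157 CPM, lay below it. For Nsdhl the means were 104 to 137 CPM in GFP, 78.5 ± 4.46 CPM in WT-Cre, 26.7 ± 4.29 CPM in MT194-Cre, 25.8 ± 1.74 CPM in MT486-Cre, 19.3 ± 2.54 CPM in DMT-Cre and 11.7 ± 0.0909 CPM in EV-Cre (SD, n = 2). MT194-Cre and MT486-Cre overlapped, and each step from there down was free of overlap. For Dhcr7 the last tier could not be ordered by overlap: MT194-Cre was at 23.8 ± 5.29 CPM, MT486-Cre at 22.5 ± 4.45 CPM, EV-Cre at 21.2 ± 5.81 CPM and DMT-Cre at 21.1 ± 5.37 CPM, and neighbours overlapped throughout. Within a replicate number MT194-Cre was highest and MT486-Cre next, at 20.1 and 19.4 CPM in replicate 1 and at 27.5 and 25.7 CPM in replicate 2. EV-Cre and DMT-Cre changed places, at 17.1 and 17.3 CPM and at 25.3 and 24.9 CPM. This order was not tested. Between the GFP groups with a construct and EV-GFP, 0 enzymes were called in WT, MT194, MT486 or DMT, against 0%, 0%, 0.00724% and 0% of all genes tested, with 0 called by DESeq2. By edgeR 0 enzymes had an unadjusted p under 0.05 in any of the 4, beside 0.608%, 2%, 1.83% and 1.27% of all genes tested. The lowest change there was that of Nsdhl in MT486-GFP, -0.36 with a 95% interval from -0.73 to 0.01.

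The genes also differed in how the 2 replicates related. Sc5d, for example, was 0.68 higher on the log2 scale in replicate 2 of EV-Cre and 0.63 higher in replicate 2 of EV-GFP, and Dhcr7 was 0.57 and 0.68 higher. Fdft1 went the other way, with log2 ratios of replicate 2 to replicate 1 of -0.36 and -0.07, and so did Lss, with -0.10 and -0.08. Across the 20 libraries each gene's log2 CPM correlated with the mean of the other 8 at r = 0.94 (Fdft1 and Sc5d) to r = 0.997 (Msmo1), a description over libraries that share the Cre contrast.

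Upstream of squalene, the mevalonate enzymes compared were lower as well. In EV 7 of 7 were called lower in Cre, against 3.24% of all genes tested, with a median log2 fold change of -3.41: Hmgcs1 (-3.41), Idi1 (-4.11), Fdps, which makes farnesyl diphosphate (-3.69), Mvd (-3.54), Mvk (-2.84), Acat2 (-2.61) and Pmvk (-1.65). Hmgcs1, the synthase at the head of the mevalonate branch, was at 562 and 457 CPM in EV-GFP and at 57.8 and 38.3 CPM in EV-Cre, without overlap. Idi1 rested on few reads, with 17 and 1 in EV-Cre against 178 and 117 in EV-GFP. In WT 0 of 7 were called by edgeR. In MT194, MT486 and DMT 6, 4 and 7 were called lower, against 1.29%, 0.724% and 2.69% of all genes tested, and in WT-Cre against EV-Cre 7 were called higher, against 3.89%.

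Of 7 genes of the SREBP pathway 2 were called lower in EV, where 3.24% of all genes tested were, Insig1 (-3.57) and Srebf2 (-2.07). Insig1, which retains SREBP2 in the endoplasmic reticulum and is itself a target of it, was at 193 and 227 CPM in EV-GFP, at 19.1 and 16.2 CPM in EV-Cre, and at 122 and 124 CPM in WT-Cre. Srebf2 was at 483 and 703 CPM in EV-GFP, 131 and 151 CPM in EV-Cre, 513 and 622 CPM in WT-GFP and 425 and 507 CPM in WT-Cre. Both genes were thus lower in both EV-Cre libraries than in both WT-Cre libraries. The other 5 had values near the middle of all genes: Srebf1 (-0.28), Scap (-0.19), Insig2 (0.15), Mbtps1 (-0.33) and Mbtps2 (0.32). Of 8 genes of sterol transport and efflux 1 was called lower, Stard4, a carrier of cholesterol in the cytosol (-2.74, adjusted p = 0.00238, edgeR), and Abca1, the exporter, was at -0.54 (adjusted p = 0.527). Of 7 genes that use farnesyl or geranylgeranyl diphosphate for prenylation, ubiquinone or dolichol, 0 were called by edgeR, and their median was 0.13. In WT 0 genes of these 3 lists were called. The SREBP list had 2, 1 and 2 lower in MT194, MT486 and DMT, and the transport list 1, 0 and 1, where 1.29%, 0.724% and 2.69% of all genes tested were called lower. In WT-Cre against EV-Cre 2 of the SREBP list and 1 of the transport list were higher, where 3.89% of all genes tested were.

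**Figure D3:**
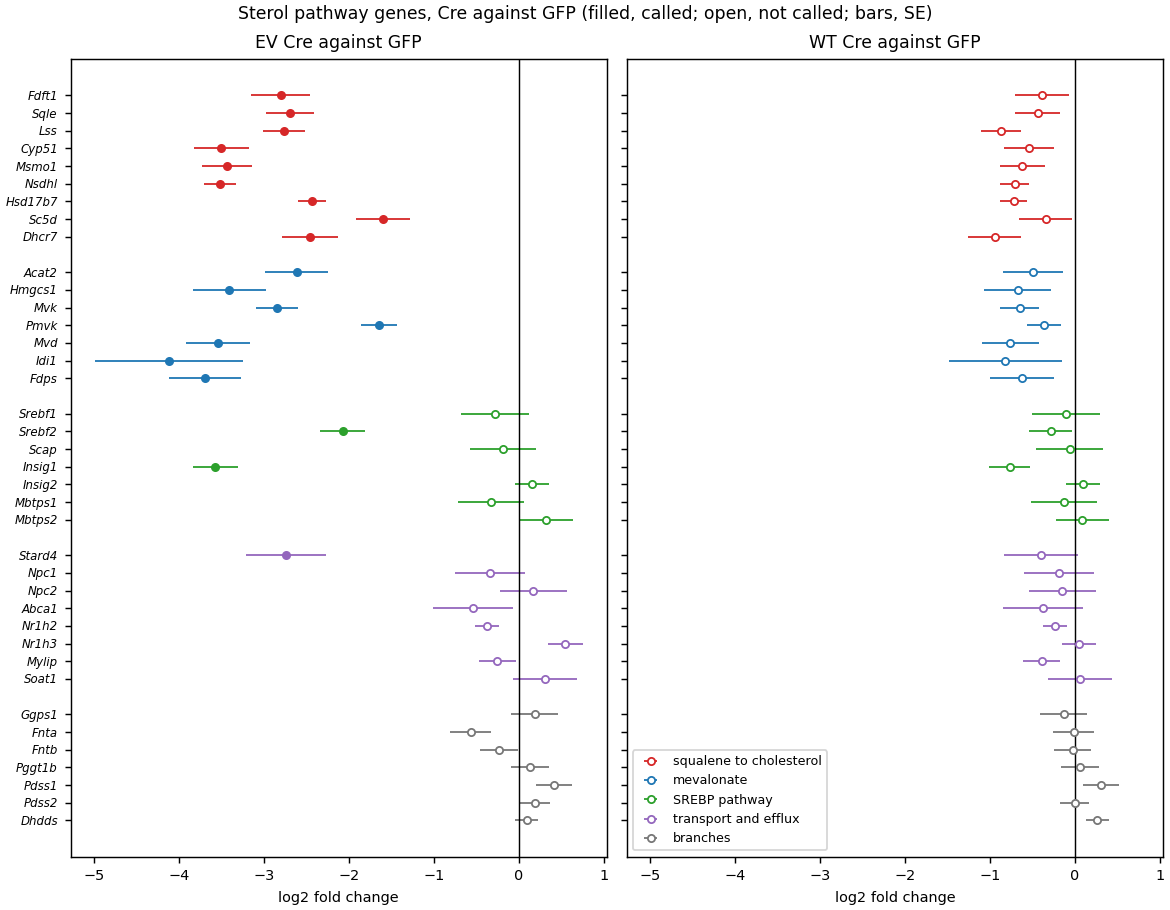
Log2 fold change, Cre against GFP, of the 9 enzymes and of 4 lists of related genes in EV (left) and WT (right), with bars of 1 SE, filled points for called changes and open points for others. In EV all 9 enzymes and all 7 mevalonate enzymes shown are filled and lie at -1.60 or lower, with Srebf2, Insig1 and Stard4, while in WT no point is filled.

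Among the 5 genes whose pattern over the 20 population libraries was most like the mean of the 9 enzymes, by Pearson correlation of log2 CPM among 13796 other genes, were Scd1 (r = 0.993), Insig1 (0.993), Lipg (0.990) and Scd2 (0.989). Scd1 and Scd2 encode desaturases of fatty acids and Lipg a lipase. Over the 15 clone libraries, among 13214 other genes, the 5 included Fdps (0.971), Insig1 (0.965), Hmgcs1 (0.955) and Stard4 (0.955). Without the WT clones 1 and 3, over 13 clones, these values were 0.972, 0.975, 0.955 and 0.961. Insig1 was named in both sets. Nelfb itself correlated with the enzymes at r = 0.171 over the populations, where its construct reads count as Nelfb.

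In the clones, which are long-term lines without an Ad-GFP counterpart, the summed level of the 9 enzymes was split by vector. It was 1397, 1455 and 2072 CPM in the WT(N48) clones and 1465, 1264 and 1634 CPM in the Δ-C60 clones, both in pBabe. In pLenti it was 669, 520 and 638 CPM in the libraries labelled WT, 556, 385 and 600 CPM in MT194 and 798, 803 and 631 CPM in MT486. All 6 pBabe clones were above all 9 pLenti clones. Among single genes the same held for 5 of 9, against 1.07% of all genes tested: Sqle, Lss, Cyp51, Hsd17b7 and Sc5d. Sqle ran from 343 to 591 CPM in pBabe and from 116 to 209 CPM in pLenti, and Hsd17b7 from 66.4 to 114 CPM and from 16.6 to 44.3 CPM. Without the WT clones 1 and 3 the same 5 genes stood apart, against 1.18% of all genes tested. Vector, construct and clone cannot be told apart in this split. Marker sums also varied over the clones: from 3.30 to 101 CPM for 5 epithelial markers led by Krt19, from 0.481 to 58.9 CPM for 3 adipocyte markers led by Fabp4, and from 0 to 18.9 CPM for 3 hepatocyte markers led by Alb, the highest in MT194 clone 2. The sum of 9 fibroblast markers, led by Fn1, ran from 14612 to 25564 CPM in pBabe and from 7437 to 25666 CPM in pLenti. The part of these sums in the enzyme values was not tested.

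**Figure D4:**
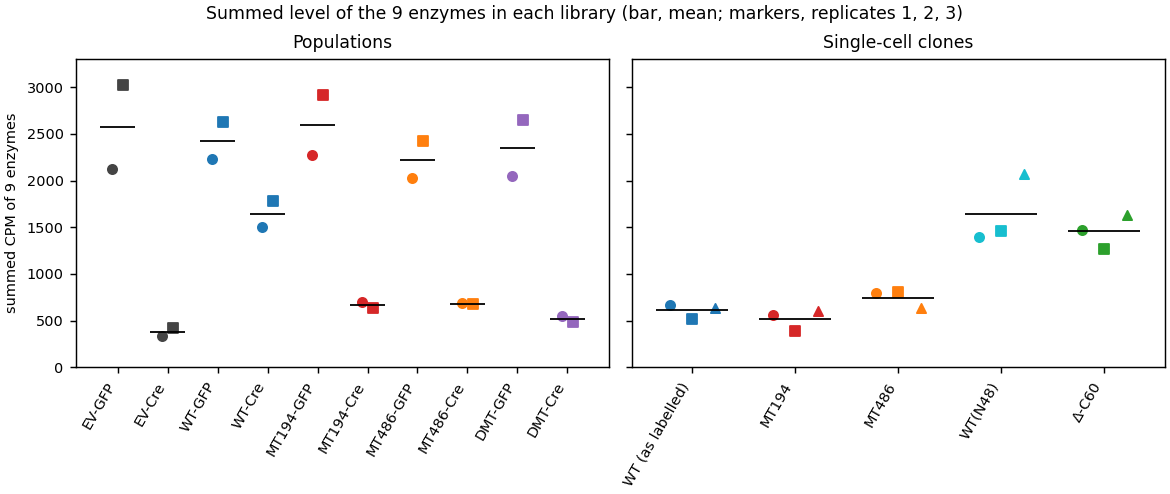
Summed CPM of the 9 enzymes in each population library (left) and clone library (right), on a shared axis from 0, with markers for replicates 1, 2 and 3 and a bar for the mean. After Cre the EV populations sit at 331 and 417 CPM and the WT populations at 1504 and 1781 CPM, and the pBabe clones, WT(N48) and Δ-C60, sit between 1264 and 2072 CPM, above all pLenti clones.

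Loss of the C terminus was compared within pBabe. Between Δ-C60 and WT(N48) clones 0 enzymes were called in either direction, against 0% of all genes tested. By edgeR 1 of the 9, Sqle, had an unadjusted p under 0.05, against 11.6% of all genes tested, and DESeq2 called 0, beside 1.07% of all genes. Sqle was at 521, 591 and 575 CPM in WT(N48) and at 358, 503 and 343 CPM in Δ-C60, without overlap, a log2 fold change of -0.49 with a 95% interval from -0.92 to -0.06 and an adjusted p of 0.373 (edgeR). Cyp51 was at 197, 193.8 and 392 CPM in WT(N48) and at 316, 243 and 335 CPM in Δ-C60, with a 95% interval of the log2 change from -0.55 to 0.93. That of Msmo1 ran from -0.92 to 0.96 and that of Dhcr7 from -1.18 to 0.16. Of these 4 intervals that of Sqle lay wholly below 0, and the other 3 held 0.

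Against the WT(N48) clones, 7 enzymes were called lower in the MT194 clones, against 1.54% of all genes tested, among them Hsd17b7 (-2.37), Sqle (-1.86) and Msmo1 (-1.82). Hsd17b7 was at 95.3, 86.1 and 107 CPM in WT(N48) and at 16.6, 16.9 and 22.4 CPM in MT194, 5.16-fold lower with an adjusted p of 0.00191 (edgeR). The 2 sets of clones stood far apart. Nsdhl (adjusted p = 0.0704) and Dhcr7 (adjusted p = 0.115) were the enzymes not called. In the MT486 clones 1 enzyme was called lower, against 0.174%: Sqle, at 209, 201 and 199.9 CPM, with a log2 fold change of -1.47 and an adjusted p of 0.0108 (edgeR). Both comparisons set pLenti against pBabe clones, so vector and mutation cannot be told apart. The MT194 count was 3 without MT194 clone 1, where 0.49% of all genes were called in either direction, against 3.24% before. It was 4 without MT194 clone 2 (3.01% of all genes), WT(N48) clone 1 (0.371%) or WT(N48) clone 3 (6.7%). The MT486 count was 0 without MT486 clone 1 (0.0223%) or 2 (0.0148%), the 2 most alike clones, against 0.272% of all genes before.

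In the libraries labelled WT, Sqle and Hsd17b7 lay within the pooled range of the MT194 and MT486 clones. Sqle was at 167, 153 and 138 CPM, and Hsd17b7 at 38.9, 24.2 and 29.2 CPM. The MT194 clones taken alone were all lower in Hsd17b7, at 16.6, 16.9 and 22.4 CPM. Compared with the libraries labelled WT, the Δ-C60 clones had 4 enzymes called higher, Sqle (1.39), Lss (1.49), Cyp51 (1.62) and Hsd17b7 (1.54), against 3.69% of all genes tested. Compared with the same libraries, the WT(N48) clones had 3 called higher, Sqle (1.88), Lss (1.95) and Hsd17b7 (1.64), against 0.938%. Clone 2, with Nelfb at 109 CPM, was lower than clones 1 and 3 in every enzyme but Sqle. Its Cyp51 was at 58.2 CPM beside 121 and 112 CPM, and its Lss at 27.0 CPM beside 31.2 and 35.5 CPM. Its Sqle, at 153 CPM, lay between those of clone 1 (167 CPM) and clone 3 (138 CPM). Without clones 1 and 3 a single WT library remained, which was assumed to vary like the others. The enzymes' calls were then lost in both comparisons, along with nearly all calls over all genes. The changes themselves were 1.36 (Δ-C60) and 1.86 (WT(N48)) for Sqle and 2.33 and 2.15 for Cyp51. The Δ-C60 count was 2 without WT clone 1, 2 without WT clone 2 and 1 without WT clone 3. Those fits called 0.69%, 2.2% and 0.956% of all genes in either direction, against 5.38% before. The WT(N48) count was 1 without WT clone 1 (0.089% of all genes) or 3 (0.0741%), against 1.47% before.

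Dhcr7 was the enzyme least like the others in the clones. It was at 34.2, 30.6 and 53.2 CPM in WT(N48), 22.1, 38.4 and 22.3 CPM in Δ-C60, and 30.5, 27.2 and 32.3 CPM in the libraries labelled WT, with overlap among all 3, as there was for Fdft1. By edgeR neither Dhcr7 nor Nsdhl was called in any of the 5 clone comparisons. The log2 CPM of Dhcr7 correlated with the mean of the other 8 enzymes at r = 0.549 over the 15 clones, while the others ran from 0.836 (Nsdhl) to 0.947 (Hsd17b7), a description over lines that share vectors and constructs. Without the WT clones 1 and 3 Dhcr7 was at r = 0.616 and the others at 0.836 to 0.948. Sc5d, the step before it, was at 86.8, 104 and 155 CPM in WT(N48), 144, 91.8 and 136 CPM in Δ-C60 and 67.1, 64.9 and 66.9 CPM in the libraries labelled WT, so its pBabe clones were all higher.

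**Figure D5:**
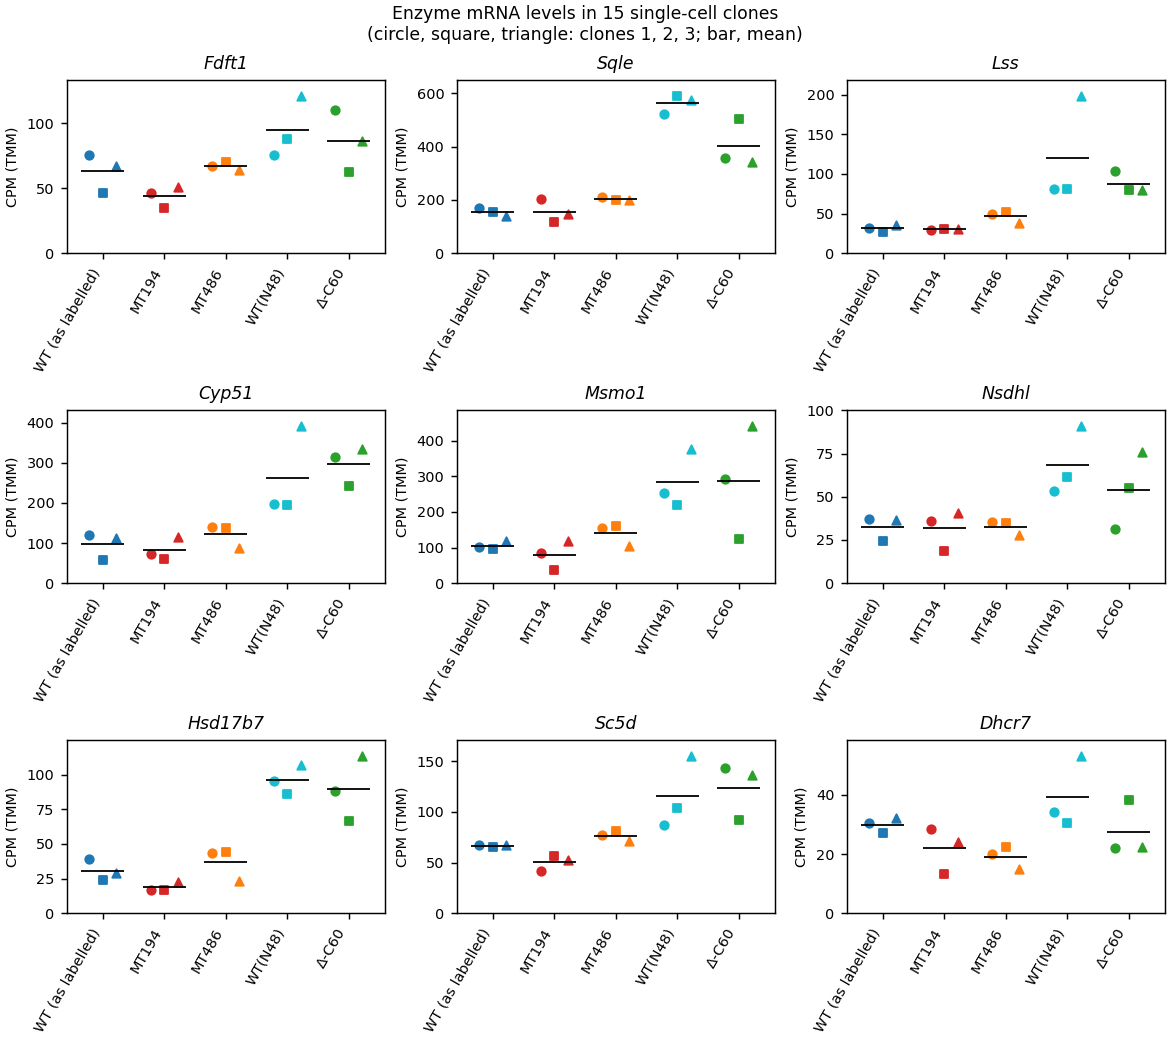
Levels of the 9 enzyme mRNAs in the 15 clone libraries, in CPM after TMM normalization on axes that start at 0, with a circle, square and triangle for clones 1, 2 and 3 and a bar for the mean. For Sqle every WT(N48) and Δ-C60 point lies at 343 CPM or higher and every other point at 209 CPM or lower, while for Fdft1, Msmo1, Nsdhl and Dhcr7 the points of the pBabe groups, WT(N48) and Δ-C60, overlap those of the others.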

How the data were processed

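Counts of reads per gene in 35 RNA-seq libraries were used as deposited. The authors made poly(A)-selected stranded libraries, aligned reads to mm10 with Bowtie2, sorted and filtered alignments with SAMtools and counted reads on genes with HTSeq, and the deposited counts are not normalized. The strand setting of the counting is not given in the sources used here. Reads on no gene, 11.7% to 21.3% in populations and 9.14% to 12.0% in clones, were left out of library sizes. The number of columns from other series was 0.

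Populations and clones were fitted apart with edgeR 4.0.16 (R 4.3.3, limma 3.58.1): filterByExpr, TMM, a robust quasi-likelihood model with 1 mean per group over all groups of the set, and Benjamini-Hochberg adjustment over all genes tested. The SE is the log2 fold change divided by the square root of F. Calls needed an adjusted p under 0.05 with a log2 fold change whose size was over 1 (Cre effects, clones) or 0.5 (other population comparisons), and interactions the adjusted p alone. Levels are CPM after TMM. The model was tried on simulated data. In the EV comparison it called 93% of 100 genes changed by 1.5 on the log2 scale and 4 of 13605 unchanged genes. In MT194 against WT(N48) clones it called 68% of 100 such genes and 4 of 13023 unchanged genes. The simulated counts were drawn independently for each library at the model's trended spread, without a shift shared by same-numbered replicates. These shares therefore do not describe the fit on libraries with such a shift.

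Same-numbered population replicates deviated together from their group means, with a correlation over 0.1 in 45 of 45 pairs of groups (0.42 to 0.73, median 0.586). The pairing comes from these data and the shared numbers in the labels. A fit with the number as a block is given where it changed a call. Of 25 replicate pairs 0 held identical counts, and all differed by more than counting noise, MT486 clones 1 and 2 least.

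Members and lists were chosen with earlier results of these data known. Named were all enzymes, Nelfb, the genes of 4 related lists called in EV (up to 8 of a list) and genes among the 5 most like the enzymes' mean in each set. Further genes of the pathway that the rule covers are not reported here, and counts of their list leave them out. Gene positions and exon lengths come from GENCODE (GRCm38), promoters from RefSeq (GRCm38.p6). Alternatives were DESeq2 1.42.0, its size factors in edgeR, no filter on low counts, the compared groups alone, the other fold change threshold, the replicate block and each library left out. Leaving out WT clones 1 and 3 together was chosen after seeing the data.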

Additional observations from a re-analysis of the deposited data

Results flagged for a closer look

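The Cre effect on 7 enzymes differed between WT and EV populations by a test of the difference itself (edgeR interaction, Benjamini-Hochberg adjustment). On the log2 scale WT exceeded EV by 2.41 for Fdft1, 2.25 for Sqle, 1.90 for Lss, 2.96 for Cyp51, 2.81 for Msmo1, 2.80 for Nsdhl and 1.71 for Hsd17b7. The difference was called higher for 0.398% of all genes tested, and leaving out 1 library gave 1 to 5 enzymes.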

How the results depend on the processing

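Counts of enzymes called are given here where an alternative moved them by more than 1.5 times, and the cause was not tested. DESeq2 gave 1 for the MT194 and 2 for the MT486 difference from EV (0 and 0 with edgeR), 5 and 6 for MT194-Cre and MT486-Cre against EV-Cre (1 and 1), 8 and 8 against WT-Cre (5 and 2), 5 for MT486 clones against WT(N48) (1) and 6 for WT(N48) against WT clones (3). DESeq2 called more of all genes in these comparisons as well: in this order 0.152%, 0.34%, 1.52%, 2.97%, 3.26%, 1.12%, 2.91% and 4.91% in either direction, against 0.00724%, 0.00724%, 0.225%, 0.362%, 1.38%, 0.109%, 0.272% and 1.47% with edgeR. The compared groups alone gave 3 for the WT difference from EV (7), 0 and 0 for Cre against GFP in MT194 and MT486 (8 and 8), 0 and 0 for these mutants against EV-Cre (1 and 1), 0 and 0 against WT-Cre (5 and 2), 2 for MT194 clones against WT(N48) (7) and 1 for Δ-C60 against WT clones (4). In this order they called 0.0742%, 0%, 0.0381%, 0%, 0.00752%, 0%, 0%, 0.994% and 0.627% of all genes in either direction. With fewer libraries these fits also had fewer degrees of freedom.

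With the replicate block the pairing gave 2 and 5 for the MT194 and MT486 differences from EV, 5 and 7 against EV-Cre and 9 and 9 against WT-Cre, and it changed no other count by more than 1.5 times. Beyond the calls named in the report it changed no other call of an enzyme. Leaving out WT clones 1 and 3 together, chosen after seeing the data, left a single WT library. The enzymes' calls were then lost in both comparisons with WT clones, along with nearly all calls over all genes. The split by vector stayed at 5 of 9 enzymes. Leaving out 1 library gave 4 to 7 for Cre against GFP in MT486, 0 to 0 for MT194-Cre and for MT486-Cre against EV-Cre, 1 to 5 for the WT difference from EV, 2 to 4, 0 to 0 and 4 to 6 for MT194-Cre, MT486-Cre and DMT-Cre against WT-Cre, 3 to 6 and 0 to 1 for MT194 and MT486 clones against WT(N48), and 1 to 6 and 1 to 3 for Δ-C60 and WT(N48) against WT clones. Calls over all genes moved with it, from 1.46% to between 0.475% and 0.76% for Cre against GFP in MT486, for example, and from 0.681% to between 0.0355% and 0.284% for the WT difference. Most calls over all genes were likewise lost for MT194-Cre and MT486-Cre against EV-Cre, and for MT194-Cre, MT486-Cre and DMT-Cre against WT-Cre. DESeq2's size factors, no filter and the other threshold moved no count by more than 1.5 times.

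Of 405 values of a single enzyme's Cre effect under an alternative, 366 kept direction and side of the threshold, 35 kept direction but lost the call, 4 gained it and 0 reversed. The SE of a Cre effect in EV was 0.16 to 0.34 with 2 libraries per group and no block. With the replicate number as a block, in the same libraries, it ran from 0.0864 (Dhcr7) to 0.2703 (Cyp51). Whether depth or the number of libraries set the remaining spread was not tested.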
